A study of Rattus norvegicus with 8 samples.

Results

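The miR-124 and miR-9 miRNAs, which are among the miRNAs that mark the neuronal lineage, were examined in striatal tissue of rats that self-administered METH or saline. The 6 members were taken from a count table of 752 mature miRNAs by a rule that lists their names and sets no condition on their values: rno-miR-124-3p and rno-miR-124-5p, rno-miR-9a-5p and rno-miR-9a-3p, and rno-miR-9b-5p and rno-miR-9b-3p. All 6 members were present in the table, and 5 of them were among the 507 miRNAs that passed the filter on low counts. The member that did not pass was miR-9b-3p, for which values are given without a test across miRNAs.

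Each of 8 rats gave 1 small RNA library of the striatum, 4 rats in the saline group and 4 in the METH group. According to the methods of the study the rats were male Sprague-Dawley rats, and their labels gave the genotype WT. Rats of both groups had food training, surgery for a jugular catheter and daily lever-press sessions in which the infusion was either METH dissolved in saline or saline alone, and rats with stable responding were chosen. Ages at the time of sampling are not given in the sources used here.

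As background, a miRNA is cut from the stem of a hairpin precursor, and its 5p and 3p arms are the mature strands from either side of that stem. The strand that enters an Argonaute protein guides repression of mRNAs that pair with its seed, which covers bases 2 to 8, while the partner strand is usually degraded. miR-124 is a brain miRNA that represses non-neuronal transcripts in neurons, including that of the splicing factor Ptbp1. miR-9 acts in neural progenitors and neurons and restrains progenitor factors such as Nr2e1, and its opposite arm targets components of the REST complex. Both miRNAs together with neuronal transcription factors have been used to convert fibroblasts into neuron-like cells, which is why they are known as neuronal identity miRNAs. Striatal tissue contains neurons, glia and vessels, so that in these bulk samples fewer cells of a type and less RNA per cell cannot be told apart.

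The mature sequences of the miR-9 members are shown because both arms of miR-9a and both miR-9b strands are read from the same short stretches of the genome. RefSeq (GRCr8) listed sequences for 4 of the 6 members, and the seed is given in capitals:
miR-9a-5p: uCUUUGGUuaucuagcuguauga
miR-9a-3p: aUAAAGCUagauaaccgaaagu
miR-9b-5p: uUCGGUUAucuagcuuuau
miR-9b-3p: aUACAGCUagauaaccaa
The 4 seeds were distinct, and no other mature miRNA among the 693 names in the RefSeq table carried any of them. On the same strand, miR-9a-5p and miR-9b-5p shared a run of 12 bases, gguuaucuagcu, at bases 6 to 17 of miR-9a-5p, which lay mostly outside the seed. Likewise miR-9a-3p and miR-9b-3p shared a run of 12 bases, agcuagauaacc, at bases 5 to 16 of miR-9a-3p.

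The miR-9b strands were reverse complements of the miR-9a arms. All 18 bases of miR-9b-3p were complementary to bases 4 to 21 of miR-9a-5p, and all 19 bases of miR-9b-5p to bases 1 to 19 of miR-9a-3p. RefSeq places the miR-9b genes Mir3597-1, Mir3597-2 and Mir3597-3 on the strand opposite to Mir9-1, Mir9-2 and Mir9-3, so that a read assigned without regard to strand could count for either. Whether the counting used strand is not given in the sources used here.

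The hairpin precursors of miR-9a are printed to show where both arms lie, with the mature arms in capitals and the flanks and loop in lower case:
Mir9-1: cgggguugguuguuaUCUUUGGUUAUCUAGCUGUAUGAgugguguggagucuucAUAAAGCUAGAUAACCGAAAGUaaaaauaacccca
Mir9-2: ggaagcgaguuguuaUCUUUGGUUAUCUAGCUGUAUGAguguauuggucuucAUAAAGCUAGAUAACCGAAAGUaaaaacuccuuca
Mir9-3: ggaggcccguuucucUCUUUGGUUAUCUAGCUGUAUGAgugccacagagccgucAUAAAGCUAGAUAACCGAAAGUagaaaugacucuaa
The capitals were identical in the 3 hairpins, of 89, 87 and 90 bases, whereas the loops of 16, 14 and 16 bases and the flanks differed. A mature miR-9a read therefore does not show which of the 3 genes it came from. In the RefSeq annotation Mir9-1 lay within the lncRNA gene LOC100911992, Mir9-2 within the gene Mir9-2hg and Mir9-3 within the lncRNA gene Mir9-3hg. miR-124 also has 3 genes, and Mir124-1 and Mir124-2 lay within the lncRNA genes LOC102554677 and LOC120100778. Each value below is for a mature miRNA and is not split by copy, and how reads that fit several copies were counted is not given in the sources used here.

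Library totals ranged from 12929302 to 27632443 counts, with 592 to 616 miRNAs detected per library. The library of METH rat 4 stood apart, with a trimmed mean of M-values (TMM) scaling factor of 0.766 against 0.959 to 1.15 in the other libraries. CPM is the count scaled to a library of 1000000 counts. Of the 4 listed erythrocyte miRNAs 3 were in the table, and their summed TMM-scaled CPM was 2817 in this library and 342 to 648 in the others. This sum was mostly miR-451-5p, with a saline mean of 548 against 2.85 for miR-144-3p and 0.592 for miR-144-5p. Summed TMM-scaled CPM of the 4 choroid plexus miRNAs were 7124 in this library and 2785 to 3571 in the others, mostly from miR-204-5p (saline mean 2989). The part of these differences in the results below was not tested, and values without METH rat 4 are given beside the results that turn on it. Every listed marker of neurons, oligodendrocytes, microglia and leukocytes and vessels was in the table and had counts.

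The 6 members together made up 28.8%, 28.4%, 43.0% and 44.5% of all miRNA counts in saline rats 1 to 4. In METH rats 1 to 4 the corresponding shares were 33.4%, 38.5%, 41.7% and 23.9%. The groups overlapped, and nearly all of these counts came from miR-124-3p and miR-9a-5p. These held the first and the second place among all 752 miRNAs, with mean shares over the 8 rats of 22.9% and 11.2%. The miRNAs that followed were let-7c-5p at 4.72%, miR-181a-5p at 4.53% and miR-26a-5p at 4.48%.

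miR-124-3p, the guide strand of miR-124, took 16.6%, 14.7%, 32.8% and 33.4% of the library total in saline rats 1 to 4. Its shares in METH rats 1 to 4 were 20.5%, 25.3%, 32.8% and 7.49%. It was the most abundant miRNA in every rat except METH rat 4, where it ranked 2. Saline rats 1 and 2 were low and saline rats 3 and 4 were high, with no rat of that group between 16.6% and 32.8%. The highest and lowest of the 8 shares differed 4.46-fold, and 2.27-fold when METH rat 4 was left out. The Wilson 95% interval of a single share was at most ±0.0220 percentage points, so that counting error was small beside the spread among rats.

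miR-9a-5p, the guide strand of miR-9a, took 11.3%, 12.6%, 8.85% and 9.77% of the library total in saline rats 1 to 4. Its shares in METH rats 1 to 4 were 11.4%, 11.7%, 7.96% and 15.7%. METH rat 4 had the highest share of miR-9a-5p and the lowest share of miR-124-3p. The highest share of miR-9a-5p was 1.97 times the lowest, a narrower range than that of miR-124-3p.

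**Figure D1:**
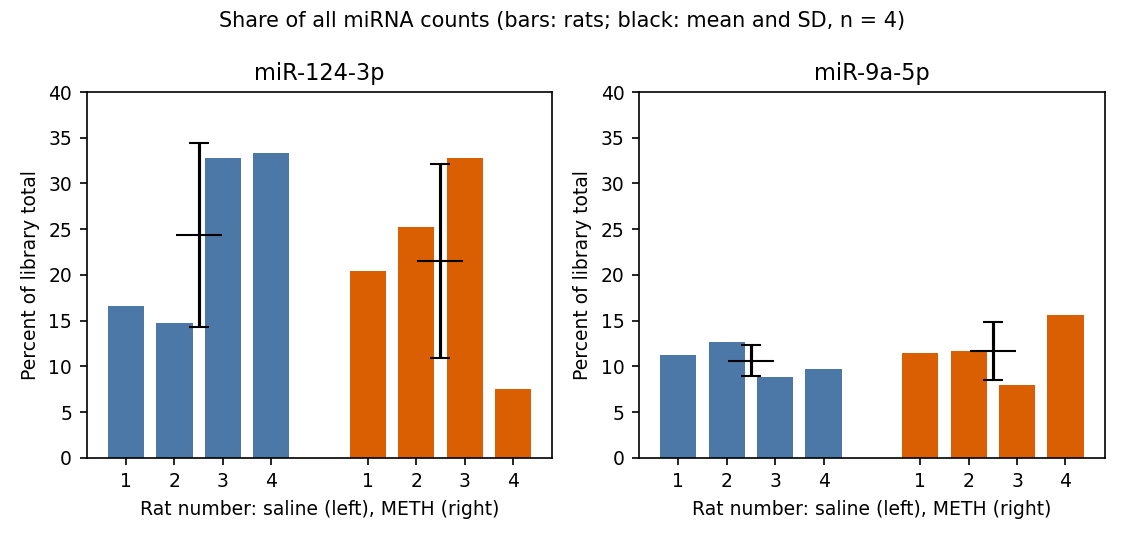
Share of all miRNA counts held by miR-124-3p (left) and miR-9a-5p (right), in percent of the library total, with 1 bar per rat (saline blue, METH orange) and the mean ± SD of each group in black (n = 4). Saline rats 3 and 4 and METH rat 3 were at 32.8% or above for miR-124-3p, METH rat 4 was at 7.49%, and METH rat 4 was the highest for miR-9a-5p at 15.7%.

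miR-9a-3p, the opposite arm of miR-9a, was also abundant and ranked 17 among all miRNAs by mean share. It took 0.896%, 1.05%, 1.33% and 1.32% in saline rats 1 to 4, and 1.56%, 1.44%, 0.878% and 0.709% in METH rats 1 to 4. The METH rats held both the highest and the lowest values, and the saline rats lay between them.

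miR-124-5p, the partner strand of miR-124-3p, was far lower and ranked 231. Its level was 45.2, 74.1, 57.6 and 63.2 CPM of the library total in saline rats 1 to 4. In METH rats 1 to 4 its level was 87.2, 53.4, 57.2 and 19.2 on the same scale. METH rat 1 was the highest and METH rat 4 the lowest, so that the saline values again fell within the METH range.

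miR-9b-5p, the strand that is complementary to miR-9a-3p, ranked 457. It had 23, 38, 43 and 39 counts in saline rats 1 to 4 and 14, 30, 22 and 33 counts in METH rats 1 to 4. These were 0.851 to 1.88 CPM of the library total. The Wilson 95% interval ran from 0.562 to 1.29 CPM for the lowest, METH rat 3, and from 1.37 to 2.58 CPM for the highest, saline rat 2. These 2 intervals did not overlap, whereas the groups did.

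miR-9b-3p, the strand that is complementary to miR-9a-5p, ranked 540. It had 3, 6, 9 and 21 counts in saline rats 1 to 4 and 0, 9, 3 and 0 counts in METH rats 1 to 4. If each count is a separate read, the counts of 0 allow a level of up to 0.232 and 0.138 CPM of the library total in METH rats 1 and 4. Saline rat 1 had 0.143 CPM. All counts of miR-9b-3p were multiples of 3, which held for only 3 of the 537 miRNAs with over 50 counts in all, miR-9b-3p included. If its counts arose in steps of 3, the limits above are too low, which was not tested. Counts this low did not resolve a difference between the groups, with an exact permutation p of 0.229 for its share (two-sided).

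**Figure D2:**
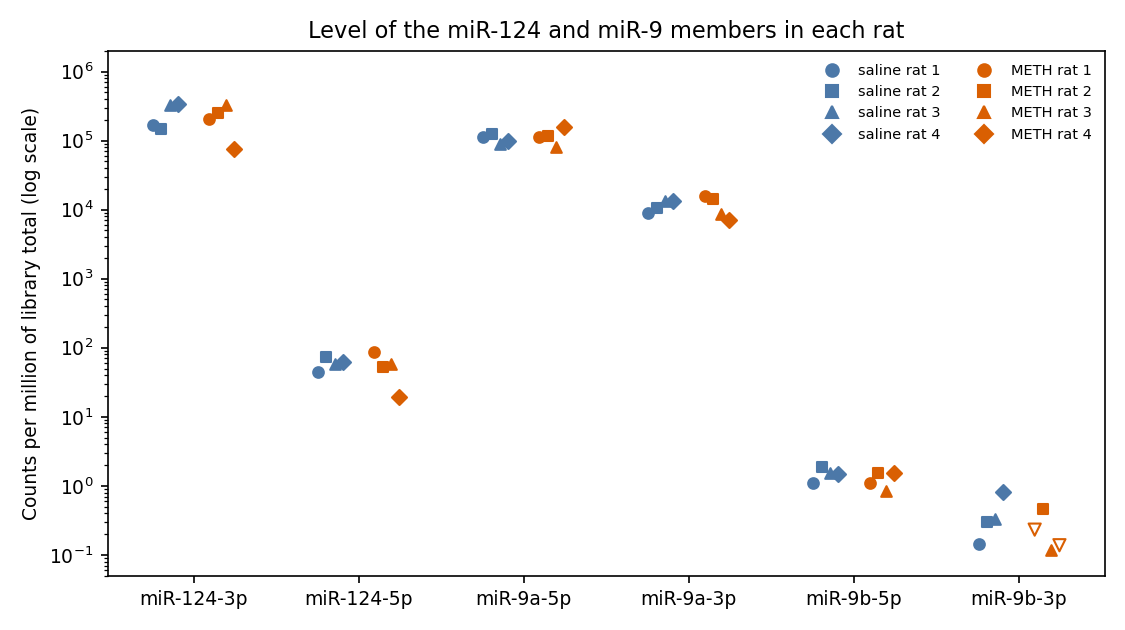
Level of the 6 members in CPM of the library total (log scale), with 1 point per rat, saline in blue and METH in orange. Open triangles stand at the level of 3 counts for METH rats 1 and 4, in which miR-9b-3p had no count. The members ranged from the most abundant miRNA, miR-124-3p, to levels under 1 CPM for miR-9b-3p.

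Ordered by mean share, the members ran from miR-124-3p through miR-9a-5p, miR-9a-3p, miR-124-5p and miR-9b-5p to miR-9b-3p. The first pair did not separate beyond the spread of their shares, since miR-124-3p exceeded miR-9a-5p in 7 of 8 rats and was lower in METH rat 4. Each other neighbour held its place in 8 of 8 rats. miR-9a-5p exceeded miR-9a-3p by 6.63-fold to 22.1-fold, miR-9a-3p exceeded miR-124-5p by 142-fold to 369-fold, and miR-124-5p exceeded miR-9b-5p by 12.7-fold to 80.5-fold. The gap between miR-9b-5p and miR-9b-3p was 1.86-fold to 7.67-fold in the 6 rats where miR-9b-3p was counted.

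The number of miR-124-3p counts per miR-9a-5p count was 1.48, 1.17, 3.70 and 3.42 in saline rats 1 to 4. It was 1.79, 2.16, 4.13 and 0.478 in METH rats 1 to 4. On the log2 scale this ratio was 1.11 ± 0.84 for saline and 0.73 ± 1.30 for METH (mean ± SD, n = 4 each), and the difference of -0.38 was smaller than the spread (two-sided exact permutation test, p = 0.686). Without METH rat 4 the difference was 0.22, in the opposite direction.

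Because miR-124-3p took up to a share of 33.4%, the share of any other miRNA depends on it. As a percentage of the counts other than miR-124-3p, miR-9a-5p was 13.5%, 14.8%, 13.2% and 14.7% in saline rats 1 to 4. The same measure was 14.4%, 15.7%, 11.8% and 16.9% in METH rats 1 to 4. On this base the coefficient of variation of miR-9a-5p was 5.84% instead of 15.7% in the saline group, and 14.8% instead of 27.0% in the METH group. Without METH rat 4 it was 14.01% instead of 20.2% in the METH group, and without METH rat 3 it was 8.25% instead of 18.3%. For miR-9a-3p in the saline group the change of base worked the other way, with a coefficient of variation of 30.8% instead of 18.6%. In the METH group the coefficient of miR-9a-3p was 38.1% instead of 36.3%, but without METH rat 4 it was 21.2% instead of 28.1%, the same direction as for miR-9a-5p. The contrast between the arms was thus seen in the saline rats, and in the METH rats it rested on rat 4. This base was chosen after the values were seen.

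**Figure D3:**
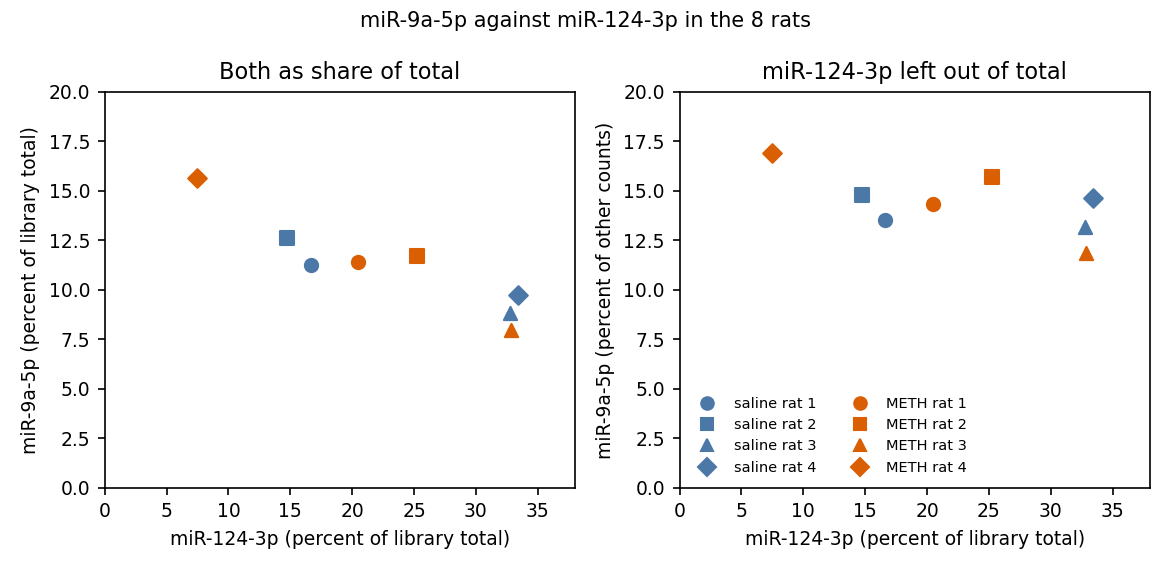
Share of miR-9a-5p against share of miR-124-3p in the 8 rats (percent; saline blue, METH orange, marker shape by rat number), with miR-9a-5p as a percentage of the library total (left) or of the counts other than miR-124-3p (right). On the right the saline rats lie between 13.2% and 14.8%, although their miR-124-3p shares run from 14.7% to 33.4%.

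Both precursors had a dominant arm, on opposite sides of the hairpin. For miR-124 the number of 3p counts per 5p count was 3686, 1989, 5693 and 5283 in saline rats 1 to 4. It was 2346, 4730, 5739 and 3895 in METH rats 1 to 4. The log2 ratio of 5p over 3p was -11.91 ± 0.69 for saline and -11.95 ± 0.55 for METH (mean ± SD, n = 4 each). Among the 174 precursors with both arms tested, only 2 had a larger difference between arms than miR-124.

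For miR-9a, the number of 5p counts per 3p count was 12.6, 12.01, 6.63 and 7.40 in saline rats 1 to 4. It was 7.33, 8.14, 9.06 and 22.1 in METH rats 1 to 4, where rat 4 stood above all other rats. The log2 ratio was 3.21 ± 0.47 for saline and 3.39 ± 0.73 for METH (mean ± SD, n = 4 each). With a difference between arms that was exceeded by 102 of the 174 precursors, miR-9a lay somewhat below the median absolute log2 arm ratio of 3.81. A total of 94 precursors had the 5p arm higher and 80 had the 3p arm higher.

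Arm ratios were compared between the groups because a ratio within a library does not depend on its depth. The log2 arm ratio of miR-124 differed by -0.04 ± 0.44 (SE) between the METH and saline groups (limma, adjusted p = 0.975). This difference was 0.28 without saline rat 2, 0.14 without METH rat 3 and 0.04 without METH rat 2, all in the opposite direction, and -0.29 without METH rat 1. That of miR-9a differed by 0.17 ± 0.43 (SE; limma, adjusted p = 0.931), and by -0.19 without METH rat 4. Of the 174 precursors, 0 (0%) had a changed arm ratio at an adjusted p of 0.05, and 3 (1.72%) had an unadjusted p under 0.05, neither miR-124 nor miR-9a among them. The spread of both ratios among rats was ordinary, with pooled SDs of 0.63 for miR-124 and 0.62 for miR-9a beside a median of 0.63 over all precursors. These fits used limma with 4 rats in each group.

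**Figure D4:**
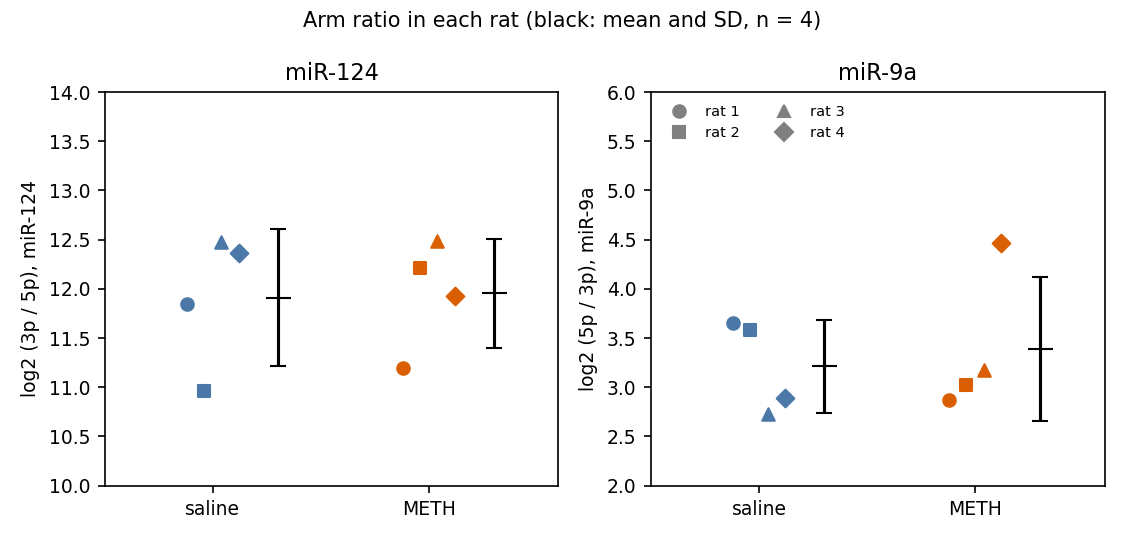
Log2 arm ratio in each rat (points, shape by rat number) with the mean ± SD of each group in black (n = 4), as 3p over 5p for miR-124 (left) and 5p over 3p for miR-9a (right). The groups overlap for both precursors, and METH rat 4 is the highest for miR-9a.

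miR-9a-5p exceeded its same-arm namesake miR-9b-5p by 56864-fold to 105443-fold over the 8 rats. On the log2 scale the ratio was 16.10 ± 0.36 for saline and 16.49 ± 0.20 for METH (mean ± SD, n = 4 each). The difference of 0.39 did not pass the two-sided exact permutation test (p = 0.0857, where the smallest possible p is 0.0286). Against the strand it complements, miR-9a-3p exceeded miR-9b-5p by 4670-fold to 14382-fold. The log2 ratio of this pair differed by 0.22 between the groups (two-sided exact permutation test, p = 0.571).

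Self-administration of METH was not accompanied by a detectable change of any tested member. In the edgeR quasi-likelihood test of the METH against the saline group, 0 of 507 miRNAs (0%) had an adjusted p under 0.05, and 28 (5.52%) had an unadjusted p under 0.05. DESeq2 called 8 and the exact test of edgeR 6 of the tested miRNAs at the adjusted threshold, none of them a member. None of the 5 tested members was among the 28, and none was among the 16 miRNAs (3.16%) whose groups did not overlap. The median log2 fold change over all tested miRNAs was -0.02.

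By TMM-scaled CPM, miR-124-3p was 238674 ± 112229 for saline and 217886 ± 103725 for METH (mean ± SD, n = 4 each). Its log2 fold change was -0.13 ± 0.44 (SE; edgeR, adjusted p = 0.978), with a 95% interval from -1.12 to 0.86. This interval contains a change of more than 1 log2 unit in the lower direction, so that a moderate change could not have been seen among these rats. The estimate was 0.11 without METH rat 4, 0.07 without saline rat 3 and 0.06 without saline rat 4, all in the opposite direction. As a share of the library total, miR-124-3p was 24.4% ± 10.1 for saline and 21.5% ± 10.6 for METH (mean ± SD, n = 4 each; two-sided exact permutation test, p = 0.714). Without METH rat 4 the METH mean was 26.2% ± 6.24 (SD, n = 3).

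miR-9a-5p was 101072 ± 8960 TMM-scaled CPM for saline and 126193 ± 53926 for METH (mean ± SD, n = 4 each). Its log2 fold change of 0.32 ± 0.30 (SE; edgeR, adjusted p = 0.868) had a 95% interval from -0.34 to 0.98. It was 0.14 with library totals in place of TMM factors, 0.07 with totals without miR-124-3p and 0.12 with voom. The higher METH mean rested on METH rat 4, at 204524 TMM-scaled CPM, and without this rat the log2 fold change was -0.0042. As a share of the library total it was 10.6% ± 1.67 for saline and 11.7% ± 3.15 for METH (mean ± SD, n = 4 each; two-sided exact permutation test, p = 0.629). The METH mean was 10.4% ± 2.09 (SD, n = 3) without METH rat 4, below that of the saline group.

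miR-9a-3p had a log2 fold change of 0.06 ± 0.26 (SE; edgeR, adjusted p = 0.978; 95% interval -0.51 to 0.64). It was -0.0028 without saline rat 1, -0.030 without METH rat 1 and -0.083 without METH rat 2, and below 0 with both library-total scalings, whereas without METH rat 4 it was 0.17. Its share was 1.15% ± 0.214 for saline and 1.15% ± 0.416 for METH (mean ± SD, n = 4 each; two-sided exact permutation test, p = 1). miR-124-5p was 57.3 ± 10.4 TMM-scaled CPM for saline and 53.7 ± 21.7 for METH (mean ± SD, n = 4 each). Its log2 fold change was -0.09 ± 0.34 (SE; edgeR, adjusted p = 0.978; 95% interval -0.84 to 0.66) and was 0.15 without METH rat 4. miR-9b-5p was 1.44 ± 0.275 TMM-scaled CPM for saline and 1.34 ± 0.512 for METH (mean ± SD, n = 4 each). Its log2 fold change was -0.11 ± 0.34 (SE; edgeR, adjusted p = 0.978; 95% interval -0.86 to 0.64). It was 0.0068 without METH rat 1 and 0.010 without METH rat 3, and -0.35 without METH rat 4. The narrowest interval among the members was that of miR-9a-3p.

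**Figure D5:**
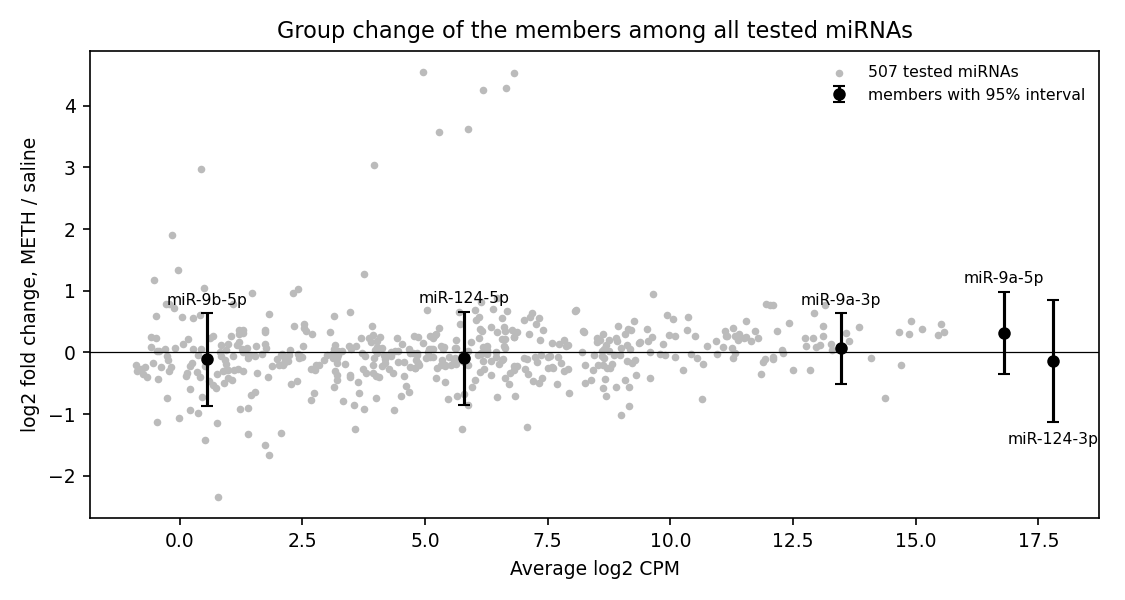
Log2 fold change of METH against saline for the 507 tested miRNAs (grey) plotted against average log2 CPM, with the 5 tested members in black and their 95% intervals. Every member interval includes 0, and the members span most of the range of abundance.

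The miRNAs whose log2 CPM followed miR-124-3p most closely over the 8 rats were miR-93-3p (Pearson r = 0.912), let-7i-3p (r = 0.875) and miR-673-3p (r = 0.868), out of 506 other tested miRNAs. Without METH rat 4 these correlations were 0.850, 0.842 and 0.782. Counts were low for miR-93-3p, at 20 to 71 per library, and for miR-673-3p, at 9 to 59. As an example, let-7i-3p was 19.9, 22.2, 116 and 145 TMM-scaled CPM in saline rats 1 to 4, with the same low pair and high pair as miR-124-3p. In METH rats 1 to 4 it was 17.9, 54.1, 43.1 and 13.2. METH rat 3, the highest of all rats for miR-124-3p, was thus below METH rat 2 for let-7i-3p. The partner strand miR-124-5p came only at place 107 in this order (r = 0.574, and 0.0801 without METH rat 4). miR-9a-3p came at place 118 (r = 0.533, and 0.449 without METH rat 4), miR-9b-5p at place 346 (r = -0.324, and 0.0301 without METH rat 4) and miR-9a-5p at place 491 (r = -0.774, and -0.647 without METH rat 4). These correlations are descriptions, since the values of a rat share a library, its depth and its scaling factor.

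miR-9a-5p was followed most closely by miR-411-5p (r = 0.951), let-7i-5p (r = 0.945) and miR-7b (r = 0.941). Without METH rat 4 these correlations were 0.645, 0.642 and 0.801. Its own opposite arm miR-9a-3p came at place 275 (r = -0.254, and 0.114 without METH rat 4), and miR-9b-5p at place 104 (r = 0.636, and 0.401 without METH rat 4). miR-124-3p came at place 442 and miR-124-5p at place 465 (r = -0.834, and -0.185 without METH rat 4). For both precursors the arm partner was thus not among the miRNAs that varied most alike.

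Other neuron-enriched miRNAs were compared as a list of 15, all of which were tested. None passed an adjusted or unadjusted p of 0.05, 8 had a positive and 7 a negative log2 fold change, and their median was 0.04 beside -0.02 over all tested miRNAs. The highest values were 0.47 ± 0.35 (SE) for miR-181a-5p and 0.42 ± 0.27 (SE) for miR-218a-5p (edgeR, adjusted p = 0.818 for both). Without METH rat 4 these values were 0.03 and 0.17. The lowest were -0.76 ± 0.35 (SE; edgeR, adjusted p = 0.818) for miR-135a-5p and -0.42 ± 0.41 (SE; edgeR, adjusted p = 0.881) for miR-134-5p, a miRNA known to limit the size of dendritic spines. The value of miR-135a-5p was -0.51 without METH rat 4. That of miR-134-5p was -0.14 without METH rat 4, -0.08 without saline rat 2 and -0.72 without METH rat 3. The summed TMM-scaled CPM of the list was 118651 to 144593 in the saline group, 119907 to 133767 in METH rats 1 to 3 and 231377 in METH rat 4. The high sum in METH rat 4 came largely from miR-181a-5p, at 97131 TMM-scaled CPM against 33169 to 49939 in the other rats, and miR-7a-5p, at 66916 against 14315 to 33725. Of the 15 listed miRNAs, 4 were highest and 6 were lowest in METH rat 4, and 5 were neither. The list did not move as a whole in this rat, in which miR-9a-5p was the highest and both arms of miR-124 the lowest of the 8 rats.

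Among lists of other cell types, 0 of the 4 oligodendrocyte, 6 microglia and leukocyte, 2 erythrocyte, 4 vascular and 4 choroid plexus miRNAs tested passed an adjusted or unadjusted p of 0.05. Their median log2 fold changes were -0.21, -0.03, 0.65, 0.05 and 0.35 in that order. Without METH rat 4 the medians were 0.03, 0.04, -0.41, 0.12 and -0.04, so that only the vascular median kept its sign. Summed TMM-scaled CPM in METH rat 4 was the highest of all rats for the oligodendrocyte list, at 4816, and for the vascular list, at 13865. It was the lowest for the microglia and leukocyte list, at 993. The high places depend on the scaling, since the TMM factor of 0.766 raises every value of this library. The largest part of each sum came from a single miRNA, with saline means of 1956 for miR-219a-2-3p, 8157 for miR-126a-3p and 1374 for miR-150-5p. Log2 fold changes were negative for 3 of 4 oligodendrocyte, 2 of 4 vascular and 4 of 6 microglia and leukocyte miRNAs.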

How the data were processed

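Small RNA (a gel-eluted fraction of TRIzol-extracted total RNA) was sequenced by the authors with a BGISEQ-500 protocol that adds unique molecular identifiers (UMIs). According to the submitters' processing notes, Cutadapt 1.18, STAR 2.7.0e with the assembly rn6, and featureCounts of Subread 1.6.4 were used. The deposited values are raw counts per mature miRNA, as whole numbers without normalization. Whether reads with the same UMI were merged, the annotation release, and the rules for strand and for reads with several alignments are not given in the sources used here. Copied reads, if not merged, make intervals from counts too narrow, so Wilson intervals and limits of 0 (3 counts) cover counting error only.

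Groups were taken from the treatment labels. Of 752 miRNAs, 90 had no count. The 507 that passed filterByExpr of edgeR 4.0.16 (minimum count 10) in R 4.3.3 were scaled by TMM factors and tested with the quasi-likelihood test, with group as the only term and Benjamini-Hochberg adjustment over all 507. CPM and log2 CPM (prior count 2) used the TMM-scaled library size unless stated to be CPM of the library total. The SE of a log2 fold change was its absolute value divided by the square root of F. Log2 arm ratios, with 0.5 added to each count, were tested with limma 3.58.1 over 174 precursors. For single values, exact permutation tests (two-sided) covered all 70 assignments of rats, with a smallest p of 0.0286. The edgeR and limma procedures were tested on simulated data. No 2 libraries agreed within sampling noise.

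The rule for the members uses names only, but the members, lists and comparisons were chosen with earlier results of these data known. The text names each member, the 3 miRNAs most correlated with miR-124-3p and with miR-9a-5p, the 2 highest and 2 lowest neuron-list members by log2 fold change, and the 5 most abundant miRNAs. Values of let-7i-3p and miR-7a-5p, and the spread and list medians without METH rat 4, were added after they were seen. Alternatives were DESeq2 1.42.0, the exact test of edgeR, voom with quality weights, other scalings, filters and pseudocounts, a replicate block, and leaving out each library. Sequences and gene relations came from RefSeq tables of GRCr8, matched by name. As this is not the build of the reads, no coordinates are given. Figures were drawn with matplotlib 3.10.9.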

Additional observations from a re-analysis of the deposited data

Results flagged for a closer look

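The log2 CPM of miR-9b-5p in saline rat 1 was 0.17, while the other 3 saline rats were at 0.69 to 0.78. The gap to the nearest rat was 0.851 of the range of the group, which exceeds Dixon's 95% critical value for 4 samples. This rat had 23 counts of miR-9b-5p against 38 to 43 in the other saline rats. Of 30 groups of 4 values examined in this way, 1 had a rat apart, and chance alone gives about 1 in 20 groups, or 1.5 of 30.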

How the results depend on the processing

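No member passed the threshold under any alternative that could reach it. Among values of members and their ratios, 70 of 73 under other settings and 97 of 120 from 7 of the 8 libraries had the direction of the reported value. Part of the 73 could not differ, because the replicate block leaves differences of shares and ratios unchanged. The permutation test and the filter of 10 counts in every library likewise leave the arm-ratio differences unchanged. At an adjusted p of 0.05 the number called was 8 with DESeq2 and 6 with the exact test of edgeR instead of 0, and 0 to 5 with a library left out (5 without METH rat 1). The number with an unadjusted p under 0.05 was 16 when every library needed 10 counts, 58 with voom and 25 to 54 with a library left out. miR-124-5p had a log2 fold change of 0.027 with upper-quartile scaling, and miR-9a-3p of -0.0053 with library totals and -0.074 with totals without miR-124-3p. Over these settings the log2 fold change ranged from -0.22 to -0.03 for miR-124-3p, -0.18 to 0.027 for miR-124-5p, 0.07 to 0.44 for miR-9a-5p, -0.074 to 0.18 for miR-9a-3p and -0.35 to -0.00034 for miR-9b-5p. With voom it was -0.09 for miR-134-5p, -0.37 for miR-135a-5p, 0.14 for miR-181a-5p and 0.27 for miR-218a-5p, and totals gave 0.25 and 0.24 for the last pair. The median of all miRNAs was -0.02 with TMM factors, 0.08 with upper quartiles, -0.12 with totals and -0.15 with totals without miR-124-3p.

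With a library left out, log2 fold changes ranged from -0.46 to 0.11 for miR-124-3p (above 0 if METH rat 4, saline rat 3 or saline rat 4 was left out). They ranged from -0.32 to 0.15 for miR-124-5p and from -0.0042 to 0.44 for miR-9a-5p (both reversed without METH rat 4). The range was -0.083 to 0.20 for miR-9a-3p (below 0 without saline rat 1, METH rat 1 or METH rat 2) and -0.35 to 0.010 for miR-9b-5p (above 0 without METH rat 1 or METH rat 3). Differences of shares ranged from -6.64 to 1.81 percentage points for miR-124-3p (above 0 without saline rat 4 or METH rat 4), -0.00167 to 0.000594 for miR-124-5p and -0.263 to 2.31 for miR-9a-5p (both reversed without METH rat 4), and -0.141 to 0.142 for miR-9a-3p (above 0 when rat 3 or rat 4 of either group was left out). The log2 arm ratio differed by -0.29 to 0.28 for miR-124 and -0.19 to 0.34 for miR-9a, and the log2 ratio of miR-124-3p over miR-9a-5p by -0.82 to 0.22. The causes were not tested.

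The replicate numbers are shared between groups by name only, as same-numbered rats deviated with correlations of -0.34, -0.15, -0.15 and -0.36, and 0 of 4 saline rats was closest to its own number. With a replicate block, 0 miRNAs passed the adjusted and 23 the unadjusted threshold, and the log2 fold change was -0.11 for miR-124-3p and 0.23 for miR-9a-5p. Permutation tests of shares and ratios with the replicate block cannot give a p below 0.125 and say nothing about stability. Depth limits miR-9b-3p most, with 0 to 21 counts per library.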
